A study of Mus musculus with 90 samples.

Results

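Transcripts of 10 genes of the NF-kB pathway and its inflammatory output were followed cell by cell in cultured mouse blood stem cell progeny with and without Mx1-Cre deletion of Runx1. The genes were chosen by symbol and are 10 of the 35869 genes in the deposited table. They comprise the chemokine genes Ccl2, Ccl3, Ccl4 and Cxcl2, the cytokine genes Il1b and Tnf, the inhibitor genes Tnfaip3 and Nfkbia, the subunit gene Nfkb1, and Tnfaip8l2. All 10 were found, each in 1 row. Knockout (KO) mice carried 1 Cre allele and floxed alleles of Runx1 (MxCre1+/-,RUNX1f/f), and wild-type (WT) controls carried the floxed alleles without Cre (MxCre1-/-,RUNX1f/f). The Mx1 promoter answers to interferon, so Cre was switched on with poly(I:C), a double-stranded RNA mimic that itself raises interferon, and both genotypes received 4 injections. CD41-positive hematopoietic stem cells were sorted from bone marrow 4 weeks later and kept in culture for 2 days. Single cells with a megakaryocyte-like look (MK) or without it (NMK) were then selected, and their RNA was read over its full length with the SMART-Seq kit. The authors kept 33 libraries in a table without outliers, with 5 KO MK, 6 WT MK, 13 KO NMK and 9 WT NMK cells. No label gives the animal, its age or the culture of a cell, so each group counts as 1 sample and no test was run.

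NF-kB dimers are held in the cytoplasm by IkB proteins. Signals from TNF, interleukin-1 and Toll-like receptors lead to destruction of the IkB protein, and the freed dimers enter the nucleus and switch on cytokine and chemokine genes together with the genes for their own inhibitors. The encoded chemokines draw monocytes (CCL2), macrophages and lymphocytes (CCL3 and CCL4) or neutrophils (CXCL2). Megakaryocytes and platelets are a known source of interleukin-1 beta, and poly(I:C) is itself sensed by receptors that feed into NF-kB.

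Bases upstream of the annotated gene start are given for 5 of the genes, because these genes are read in most cells, in hardly any, or unequally in the 4 groups described next. The sequences are the 250 bases before the start from the RefSeq annotation of GRCm38.p6, written 5′ to 3′ on the gene's strand. Promoter entries matched 7 of the 10 genes, the others being Ccl2, Ccl4 and Nfkb1. Capitals mark matches to the 10-letter NF-kB consensus on either strand, with 2 overlapping matches merged in Cxcl2. A sequence without capitals holds no match in this window.
Nfkbia (chr12:55492648-55492897, minus strand): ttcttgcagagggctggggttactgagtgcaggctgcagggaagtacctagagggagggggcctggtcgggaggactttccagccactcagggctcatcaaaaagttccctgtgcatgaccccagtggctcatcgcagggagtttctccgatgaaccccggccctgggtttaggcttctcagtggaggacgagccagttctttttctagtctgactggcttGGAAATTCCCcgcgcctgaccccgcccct
Cxcl2 (chr5:90903649-90903898, plus strand): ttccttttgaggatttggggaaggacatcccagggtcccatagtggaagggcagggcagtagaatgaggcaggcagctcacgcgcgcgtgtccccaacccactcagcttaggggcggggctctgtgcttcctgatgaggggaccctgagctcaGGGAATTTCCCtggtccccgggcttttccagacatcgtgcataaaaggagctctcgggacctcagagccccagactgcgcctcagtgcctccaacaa
Tnfaip3 (chr10:19015411-19015660, minus strand): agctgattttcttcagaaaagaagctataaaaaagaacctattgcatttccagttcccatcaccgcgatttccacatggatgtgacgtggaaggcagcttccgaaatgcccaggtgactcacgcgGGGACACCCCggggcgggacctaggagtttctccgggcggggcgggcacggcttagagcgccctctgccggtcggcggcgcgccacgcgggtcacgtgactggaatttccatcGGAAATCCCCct
Il1b (chr2:129371140-129371389, minus strand): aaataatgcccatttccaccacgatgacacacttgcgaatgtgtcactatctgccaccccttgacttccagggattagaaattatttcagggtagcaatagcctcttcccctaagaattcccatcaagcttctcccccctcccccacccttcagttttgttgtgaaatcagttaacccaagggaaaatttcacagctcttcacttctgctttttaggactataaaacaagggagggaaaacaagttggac
Tnfaip8l2 (chr3:95142355-95142604, minus strand): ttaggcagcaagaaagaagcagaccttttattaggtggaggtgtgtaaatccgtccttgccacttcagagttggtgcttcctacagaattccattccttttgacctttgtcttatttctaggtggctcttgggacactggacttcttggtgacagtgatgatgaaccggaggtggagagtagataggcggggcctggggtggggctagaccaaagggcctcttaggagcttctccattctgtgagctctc
The consensus was found in 3 of the 7 genes with an entry, against 3.90% of the 32851 promoters of the same length. In Nfkbia it lay 29 to 20 bases before the start, and in Cxcl2 the overlapping pair lay 97 to 87 bases before it. Tnfaip3 had 1 match 125 to 116 and another 12 to 3 bases before its start, while a second annotated Tnfaip3 start had none. The looser motif GGGNNNNNCC, searched on both strands and also counting overlaps, was present in 5 of the 7, against 45.8% of all promoters. The windows of Ccl3, Il1b, Tnf and Tnfaip8l2 held no consensus match, which says only that these letters are not there. A match is a description of the sequence and no measure of binding.

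The deposited unit is TPM, which corrects for length and gives every library one total, so sequencing depth is unknown. Runx1 itself was not lower in the libraries labelled KO, at 8.9 to 47.5 TPM in KO MK against 7.6 to 22.2 TPM in WT MK cells, and at 0 to 41.5 TPM in KO NMK against 0 to 15.7 TPM in WT NMK cells. Whole-gene TPM cannot show whether an exon is missing, and KO and WT stand here for libraries labelled so. Each of the 12 megakaryocyte marker genes reached 1 TPM in at least 1 MK cell of each genotype. Cell by cell, 11 or 12 of them did so in WT MK cells and 12 in KO MK cells 1A, 1B and B1-3, against 7 in KO MK 2 and 3 in KO MK B1-4. Pf4, the platelet chemokine, ranged from 12512.8 to 19618.6 TPM in the 6 WT MK cells. In the KO MK cells 1A, 1B, 2, B1-3 and B1-4 it was at 18922.2, 26884.7, 213.7, 13751.7 and 65.8 TPM. KO MK cells 2 and B1-4 thus lay within the range of the NMK cells, whose highest was 1453.1 TPM, and results that rest on them are given with and without them. The number of genes above 0 was 11896 to 14487 in KO MK, 14089 to 15252 in WT MK, 3011 to 10987 in KO NMK and 5475 to 11715 in WT NMK cells. KO NMK cells B1-1b and B1-2a had housekeeping scores (mean log2(TPM + 1) of 14 genes) of 4.23 and 2.55, against 8.71 or more in every other kept library. Housekeeping genes are among those at 0 in them, so a 0 can be a failed measurement and is called listed at 0. The 5 WT MK libraries whose titles carry no prefix were close to each other over all genes (Pearson r 0.97 to 0.98 over 10 pairs), against 0.84 to 0.95 within KO MK, and whether they share material cannot be told from TPM.

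Most of the 10 genes reached 1 TPM in a minority of the cells, and Tnf, Tnfaip3 and Tnfaip8l2 had low values on both sides of that cut. Nfkb1 reached 1 TPM in 31 and Nfkbia in 28 of the 33 cells. Tnfaip8l2 did so in 15 cells, Ccl2 in 14, Tnf in 12, Il1b and Ccl4 in 9 each, Tnfaip3 in 4, Ccl3 in 3 and Cxcl2 in 1. Among the chemokine genes the highest cell had 338.1 TPM for Ccl4, 302.7 TPM for Ccl2, 65.2 TPM for Ccl3 and 54.4 TPM for Cxcl2. In cells with 1 TPM or more the lowest had 2.1 TPM for Ccl4, 40.9 TPM for Ccl2 and 5.3 TPM for Ccl3. Tnf and Il1b stayed at or below 36.2 and 43.7 TPM in every cell. WT MK B1-1 and KO NMK B1-2b each had 7 of the 10 at 1 TPM or more, and no kept cell had more. KO NMK B1-1b had all 10 listed at 0.

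**Figure D1:**
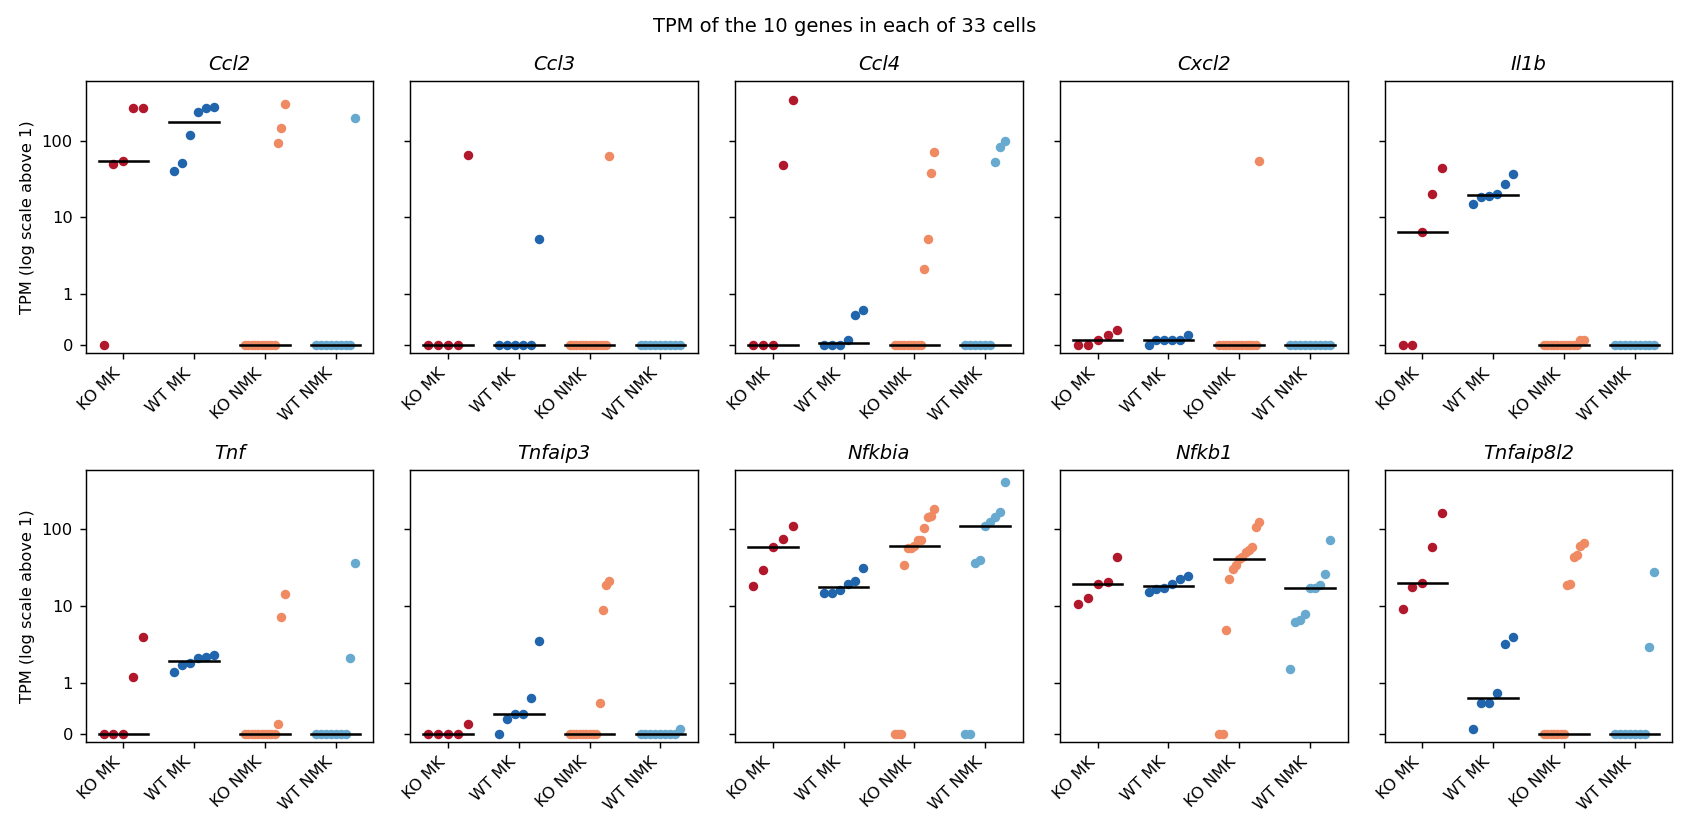
TPM of each gene (vertical axis, logarithmic above 1) in the 33 kept cells, 1 point per cell, by group, with the median as a bar. Il1b is above 1 TPM in 9 MK cells and in no NMK cell, and all 5 KO MK cells lie above all 6 WT MK cells for Tnfaip8l2.

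**Figure D2:**
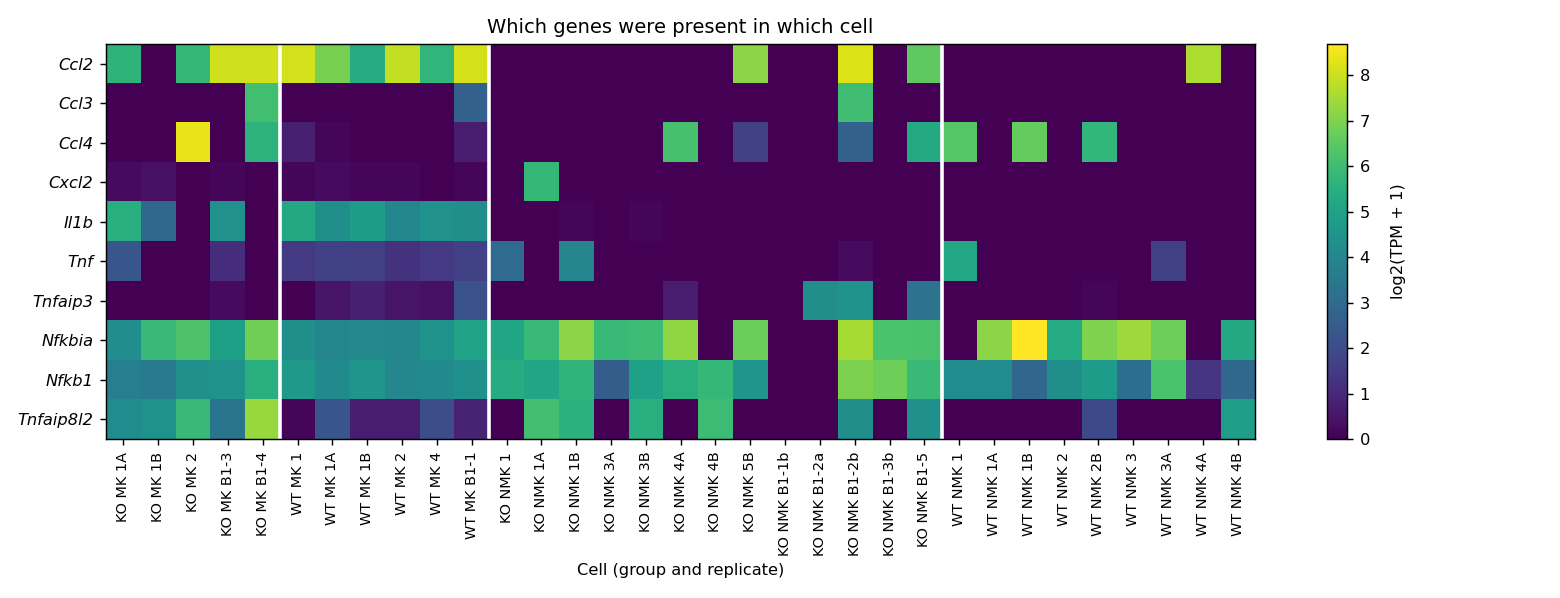
log2(TPM + 1) of each gene (vertical axis) in each kept cell (horizontal axis), with white lines between KO MK, WT MK, KO NMK and WT NMK. Nfkbia and Nfkb1 are filled in most columns, whereas Ccl3, Cxcl2 and Tnfaip3 reach 1 TPM in at most 4.

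The first question was which of these transcripts set megakaryocyte-like cells apart from other cells of the same genotype. Il1b, Ccl2 and, at a low level, Tnf were read in a larger share of MK than of NMK cells. MK cells also had more genes above 0 in general, with 11896 or more in each kept cell against at most 11715 in any kept NMK cell. The share of all genes read in a larger part of MK than of NMK cells was not counted. Il1b reached 1 TPM in 9 of 11 MK cells (81.8%, exact 95% interval 48.2% to 97.7%) and in 0 of 22 NMK cells (upper bound 15.4%), intervals that cover counting error only. Ccl2 reached 1 TPM in 10 of 11 MK cells (90.9%, 58.7% to 99.8%) and in 4 of 22 NMK cells (18.2%, 5.19% to 40.3%). Tnf did so in 8 of 11 MK cells (72.7%, 39.0% to 94.0%) and also in 4 of 22 NMK cells. Nfkbia and Nfkb1 were read in both kinds of cell and differed by less than the spread between cells.

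Il1b encodes interleukin-1 beta, which signals through its receptor to NF-kB and is itself a target of it. It lies on chromosome 2 from 129364570 to 129371139 (minus strand, GRCm38). In WT MK cells 1, 1A, 1B, 2, 4 and B1-1 it was at 36.6, 19.0, 26.9, 14.9, 20.2 and 18.6 TPM, and in WT NMK cells it was listed at 0 in all 9. All WT MK cells therefore lay above all WT NMK cells, as 4.58% of the 11562 genes compared did. In KO MK cells 1A, 1B, 2, B1-3 and B1-4 it was at 43.7, 6.5, 0.0, 20.2 and 0.0 TPM, and no KO NMK cell exceeded 0.1 TPM. The difference between KO MK and KO NMK cells was 2.54 in mean log2(TPM + 1), with a pooled SD between cells of 1.26, and 4.24 (SD 0.49) without KO MK cells 2 and B1-4. The 9 kept cells with Il1b were the 9 with Pf4 at 12512.8 TPM or more, and the KO MK cells without it, 2 and B1-4, were the ones with low Pf4. Among the 13 libraries the authors left out, KO MK 1 broke this pairing, with Pf4 at 43254.3 TPM and Il1b at 0.3 TPM. An annotated antisense transcript, Il1bos, overlaps Il1b, and the strand setting of the counting is not given, so their reads may not be separable. In the left-out KO MK 1 Il1bos was at 60.9 TPM. Il1bos was at 9.3 TPM in KO MK 1B, 3.5 TPM in KO MK B1-3 and 0 in the other kept KO MK cells, at 1.0 to 9.2 TPM in WT MK cells and listed at 0 in every kept NMK cell.

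**Figure D3:**
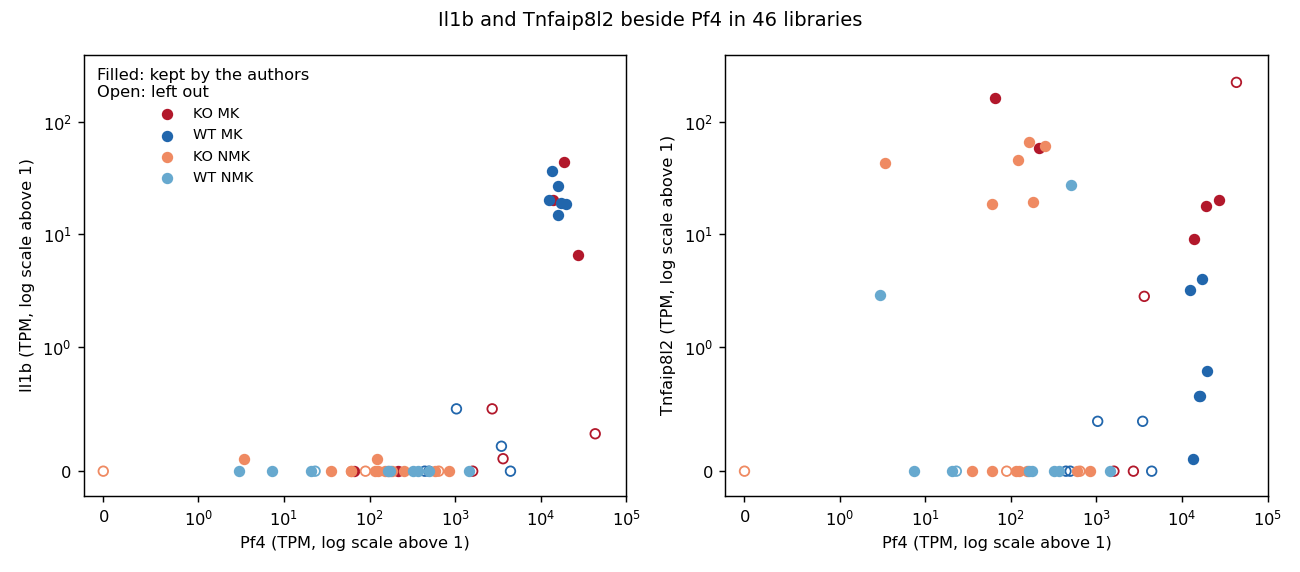
Il1b (left) and Tnfaip8l2 (right) against Pf4, all in TPM on axes logarithmic above 1, for 46 libraries coloured by group, with filled points for the 33 kept and open points for the 13 left out. The 9 filled points with Il1b above 1 TPM all have Pf4 of 12512.8 TPM or more, while Tnfaip8l2 is high on both sides of the Pf4 range in KO libraries.

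Ccl2 encodes the monocyte chemoattractant, a classical NF-kB target (chromosome 11, 82035571 to 82037453, plus strand). KO MK cells 1A, 1B, 2, B1-3 and B1-4 had 49.4, 0.0, 54.2, 267.2 and 264.6 TPM, against KO NMK cells with 92.4 TPM in B1-5, 302.7 TPM in B1-2b, 144.5 TPM in 5B and 0 in the other 10. The KO groups thus overlapped, with a difference of 3.82 (SD 3.25). WT MK cells 1, 1A, 1B, 2, 4 and B1-1 had 270.1, 118.0, 40.9, 235.8, 51.9 and 278.5 TPM, whereas of the 9 WT NMK cells only 4A had any, at 196.0 TPM. The difference between the WT groups was 6.17 (SD 2.13), and WT NMK 4A alone made them overlap. Of the cells with Il1b, 8 of 9 also had Ccl2, and the other was KO MK 1B. Ccl2 and Il1b levels in log2(TPM + 1) correlated across the 33 cells at r = 0.57, a description only, since the points share libraries, groups and a common total.

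The other chemokine genes did not follow the MK phenotype. Ccl4 encodes a chemokine that draws macrophages and lymphocytes. KO MK cell 2 had 338.1 TPM and KO MK B1-4 had 47.8 TPM of it, with 0 in the other KO MK cells, while KO NMK cells had 38.5 TPM in B1-5, 5.3 TPM in B1-2b, 70.3 TPM in 4A and 2.1 TPM in 5B. In WT cells it was at most 0.7 TPM in MK, against 83.8, 99.2 and 53.1 TPM in the NMK cells 1, 1B and 2B. Its carriers in MK were therefore the KO cells of low Pf4: the difference between KO MK and KO NMK cells was 1.59 (SD 2.73), 0.19 without KO MK 2 and -1.21 without both. Between WT MK and WT NMK cells it was -1.83 (SD 2.48). Ccl3, a chemokine gene on the same chromosome, was read only in KO MK B1-4 at 65.2 TPM, WT MK B1-1 at 5.3 TPM and KO NMK B1-2b at 63.4 TPM. Cxcl2 was at 54.4 TPM in KO NMK 1A and at most 0.3 TPM in every other kept cell.

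Tnf, the gene of the founding ligand of the TNF family, was low but even in WT MK cells, at 1.8, 2.2, 2.1, 1.4, 1.7 and 2.3 TPM in cells 1, 1A, 1B, 2, 4 and B1-1. WT NMK cell 1 had 36.2 TPM, WT NMK 3A had 2.1 TPM and the other 7 were listed at 0, so the groups overlapped and the difference of 0.77 was inside the SD of 1.38. In KO MK cells it was at 4.0 TPM in 1A, 1.2 TPM in B1-3 and 0 in the other 3, against 14.5 TPM in KO NMK 1B, 7.2 TPM in KO NMK 1 and 0.2 TPM or less elsewhere.

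Nfkbia encodes IkB-alpha, the inhibitor that NF-kB itself induces (chromosome 12, 55489410 to 55492647, minus strand). Its lowest, median and highest values were 18.1, 58.2 and 111.9 TPM in KO MK, 14.7, 17.7 and 31.5 TPM in WT MK, 0, 61.6 and 182.3 TPM in KO NMK, and 0, 109.5 and 411.7 TPM in WT NMK cells. WT MK cells were the narrow low group among cells with the transcript: the 7 WT NMK cells that had it lay at 36.5 TPM or more, above the highest WT MK cell. With the WT NMK cells at 0 counted, the WT groups overlapped. The difference between WT MK and WT NMK was then -0.98 (SD 2.51), and it was -2.57 between the medians. How many of all genes part in this way once cells at 0 are set aside was not counted. Nfkb1, which encodes the p105 precursor of the p50 subunit (chromosome 3, 135584655 to 135691547, minus strand), was at 10.8, 19.6 and 43.4 TPM in KO MK, 15.4, 18.4 and 24.6 TPM in WT MK, 0, 41.1 and 126.2 TPM in KO NMK, and 1.5, 17.2 and 73.5 TPM in WT NMK cells. These ranges overlapped in every pair of groups. All 28 cells with Nfkbia also had Nfkb1, and the KO NMK cells without Nfkb1 were B1-1b and B1-2a, the pair of low housekeeping score. Without those libraries the difference between KO MK and KO NMK cells was -1.06 for Nfkb1, against -0.23 with them, and -0.19 for Nfkbia, against 0.71 with them.

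Only genes averaging at least 1 TPM in either group entered the counts. Of the 7 such members, 2 (Ccl2 and Il1b) were higher by 1 or more on the log2 scale in WT MK against WT NMK, where 37.4% of all genes were, and 1 (Ccl4) was lower, where 5.22% of all genes were. In KO MK against KO NMK cells 4 of 10 members (Ccl2, Tnfaip8l2, Il1b and Ccl4) were higher by 1 or more, against 34.2% of all genes, and 0 were lower, against 3.84%. Without KO MK cells 2 and B1-4, 3 were higher, against 38.8% of all genes, and 1 was lower, against 6.26%. Without the libraries of low housekeeping score 4 were higher, against 26% of all genes, and 1 was lower, against 6.97%. The shares of members that were higher are near those of all genes. The median difference of the members was 0.55 in WT and 0.73 in KO, beside 0.70 and 0.59 over all genes tested. In KO it was -0.04 beside 0.65 without KO MK cells 2 and B1-4, and 0.35 beside 0.36 without the libraries of low housekeeping score.

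**Figure D4:**
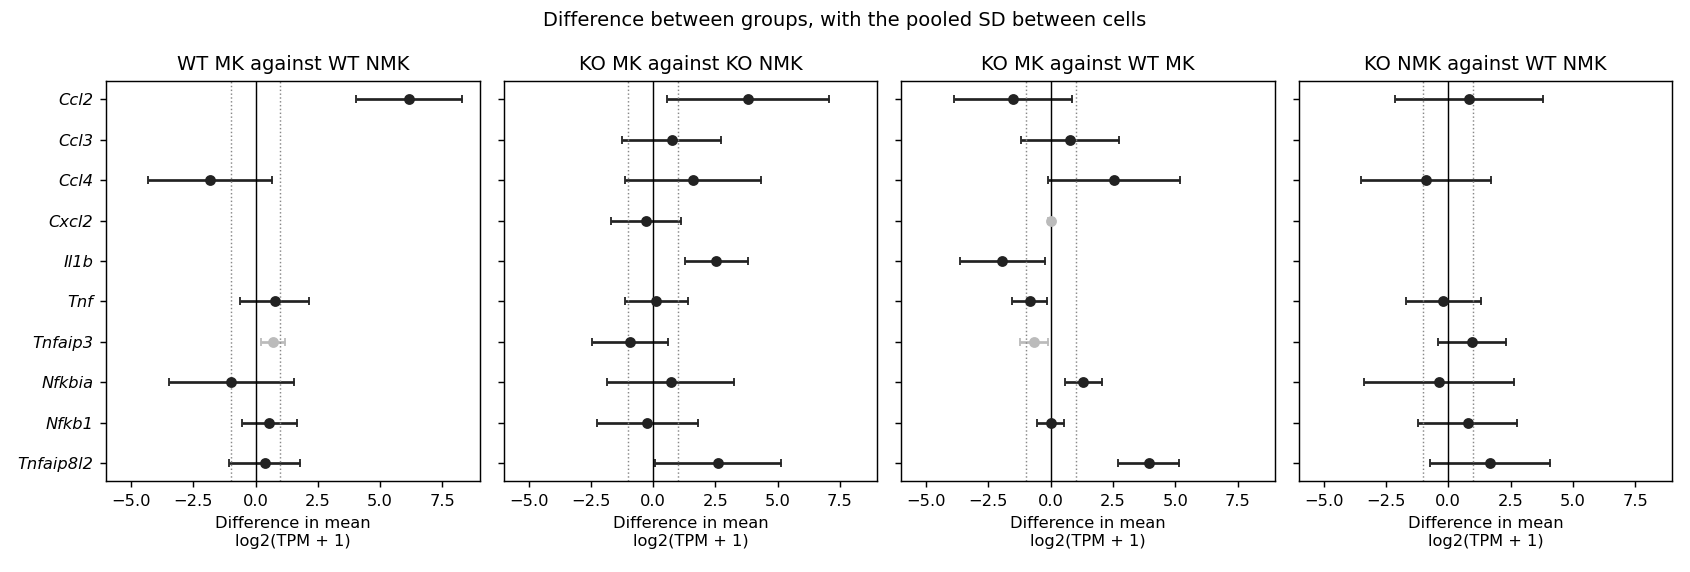
Difference in mean log2(TPM + 1) for each gene (horizontal axis, first group minus second), with the pooled SD between cells as bars, in 4 comparisons. Grey points averaged under 1 TPM in both groups, genes listed at 0 in every cell of the second group have no point, and dotted lines mark a difference of 1. Tnfaip8l2 in KO MK against WT MK lies at 3.93 with a bar that does not reach 1.

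The next question was what the labelled loss of Runx1 changed within MK cells. Tnfaip8l2, which encodes TIPE2, described in mice as a brake on Toll-like and T-cell receptor signalling, was the member that separated the genotypes. Nfkbia was higher in KO MK cells beyond the spread between cells, while Ccl4 was higher and Ccl2 lower within it. Il1b was lower by more than that spread, through the KO MK cells with low Pf4. Nfkb1 differed by -0.00 (SD 0.53).

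Tnfaip8l2 lies on chromosome 3 from 95139521 to 95142360 (minus strand). In KO MK cells 1A, 1B, 2, B1-3 and B1-4 it was at 17.8, 20.3, 58.9, 9.1 and 163.2 TPM, against 0.1, 4.0, 0.6, 0.6, 3.2 and 0.8 TPM in WT MK cells 1, 1A, 1B, 2, 4 and B1-1. Every KO MK cell lay above every WT MK cell, as 2.38% of the 11799 genes compared did. The difference was 3.93 (SD 1.24), and between 3.35 and 4.35 with each cell left out in turn. It was 2.87 (SD 0.80) without KO MK cells 2 and B1-4, so the cells with high Pf4 also stood above WT. Within libraries without a title prefix it was 3.67, and within those of prefix B1 it was 4.50, with 2 KO MK cells, B1-4 among them, against 1 WT MK cell. When the 5 similar WT MK libraries were averaged into 1 it was 3.91. Between KO MK and KO NMK cells Tnfaip8l2 differed by 2.61 (SD 2.54), and by 1.55 (SD 2.59) without KO MK cells 2 and B1-4. Of the left-out libraries, KO MK 1 had 226.3 TPM and KO MK B1-1 had 2.8 TPM, and the other left-out MK libraries had 0.4 TPM or less.

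Nfkbia was at 18.1, 58.2, 75.2, 29.5 and 111.9 TPM in KO MK cells 1A, 1B, 2, B1-3 and B1-4, against 19.3, 15, 16.1, 14.7, 21.3 and 31.5 TPM in WT MK cells 1, 1A, 1B, 2, 4 and B1-1. The groups overlapped through KO MK 1A and B1-3. The difference was 1.31 (SD 0.75), between 1.01 and 1.65 with each cell left out, and 0.71 (SD 0.55) without KO MK cells 2 and B1-4, so under 1 without them. Ccl4 differed by 2.54 (SD 2.66), by 1.14 without KO MK 2 and by -0.26 without both cells of low Pf4, which alone carried it. Ccl2 differed by -1.51 (SD 2.38) and by -0.13 without KO MK 1B, the KO MK cell in which it was listed at 0. Il1b differed by -1.95 (SD 1.70), and by -0.24 (SD 0.79) without KO MK cells 2 and B1-4. Tnf differed by -0.84 (SD 0.70), since 3 of 5 KO MK cells were listed at 0. Counted together, 3 of 8 tested members were higher by 1 or more, against 12.4% of all genes, and 2 were lower, against 9.27%. Without both KO MK cells of low Pf4, 1 of 6 tested members, Tnfaip8l2, was higher, against 16.1% of all genes, and 1, Ccl2, was lower, against 9.58%. With all kept cells the members' median was 0.38 beside 0.09 for all genes, and without both KO MK cells of low Pf4 it was -0.31 beside 0.20.

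Markers of monocytes and macrophages, which make several of these chemokines, were measured beside the members: 3 of 5 compared were higher by 1 or more in KO MK against WT MK cells and 0 lower. The summed level of the 12 markers was 274.1 to 2067.1 TPM in KO MK and 105.3 to 271.4 TPM in WT MK cells, most of it Lyz2. Mpeg1 and Cx3cr1 were listed at 0 in all cells of both groups, and Csf1r, Ly6c2, Itgam, Ctss and Ms4a6c also in WT MK cells. The sum was 2067.1 TPM in KO MK 2 and 975.6 TPM in KO MK B1-4, the cells that carried Ccl4. In NMK cells it was 1.1 to 1347.7 TPM in KO and 35.5 to 2032.6 TPM in WT, with medians of 518.4 and 809.9 TPM. Without KO MK cells 2 and B1-4, 2 of the 12 markers could be compared and 1 was higher by 1 or more in KO MK. The 10 stem cell markers summed to 291.7 to 1625.6 TPM in KO MK and 96.2 to 195.1 TPM in WT MK cells. Of 9 compared between these groups 6 were higher by 1 or more and 0 lower. Without KO MK cells 2 and B1-4, 5 could be compared, of which 2 were higher and 2 lower. In NMK cells the stem cell markers summed to 5.3 to 1589.2 TPM in KO and 142.8 to 1363.7 TPM in WT. The 8 lymphoid markers summed to 1173.4 TPM in KO MK 2, the cell with the most Ccl4, to at most 37 TPM in the other KO MK cells and to 15.2 to 39.8 TPM in WT MK cells. Mast cell and basophil markers summed to 8.7 to 48.5 TPM in KO MK and 11.2 to 51.8 TPM in WT MK cells, and stromal and endothelial markers to 2.5 to 21.5 TPM in KO MK and 2.9 to 15 TPM in WT MK cells. The 10 neutrophil markers summed to at most 91.3 TPM in KO MK and 12.8 TPM in WT MK cells. The part of all these markers in the member differences was not tested.

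Among NMK cells the question was the same, and the members separated the genotypes less cleanly. Tnfaip8l2 was again read in more KO cells: at 66.9 TPM in KO NMK 1A, 60.8 TPM in 4B, 45.9 TPM in 1B, 43.5 TPM in 3B, 19.6 TPM in B1-5, 18.6 TPM in B1-2b and 0 in the other 7. In WT NMK cells it was at 27.8 TPM in 4B, 2.9 TPM in 2B and 0 in the other 7. The groups overlapped, with a difference of 1.68 (SD 2.40), between 1.38 and 2.19 with each cell left out and 2.13 without the KO NMK libraries of low housekeeping score. Over both cell kinds 11 of 18 KO cells (61.1%, 35.7% to 82.7%) and 4 of 15 WT cells (26.7%, 7.79% to 55.1%) had 1 TPM or more. These intervals cover counting error only, and the genotypes hold unlike shares of MK cells, so no difference between genotypes is read from them.

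Tnfaip3 encodes A20, the ubiquitin-editing inhibitor of NF-kB signalling (chromosome 10, 19000910 to 19015657, minus strand). It was at 21.0 TPM in KO NMK B1-2b, 18.8 TPM in B1-2a and 8.8 TPM in B1-5, at 0.6 TPM in 4A and listed at 0 in the other 9, against at most 0.1 TPM in WT NMK cells. The difference of 0.96 was inside the SD of 1.37. All 4 kept cells with 1 TPM or more of Tnfaip3 and all 3 with Ccl3 carry the title prefix B1: 4 of 8 (exact interval 15.7% to 84.3%) and 3 of 8 (8.52% to 75.5%), against 0 of 25 for each without a prefix (upper bound 13.7%). Both genes are named for this split, so the intervals are descriptions and cover counting error only. Every other member reached 1 TPM in cells without a prefix, and how many of all genes split this way was not counted. KO NMK B1-2a, a carrier of Tnfaip3, is a library of low housekeeping score. No WT NMK cell with that prefix was kept, so for the B1 NMK cells that carry these genes prefix and genotype cannot be told apart. Among NMK cells without a prefix the difference between KO and WT was 0.07 for Tnfaip3 and 0 for Ccl3. Ccl2 was read in 3 of 13 KO NMK and 1 of 9 WT NMK cells, with a difference of 0.84 (SD 2.97), and of 0.05 among cells without a prefix. Nfkb1 differed by 0.78 (SD 1.98), and by 1.61 without the KO NMK libraries of low housekeeping score. Nfkbia differed by -0.37 (SD 3.0), and by 0.52 without them. In all, 1 of 9 tested members, Tnfaip8l2, was higher by 1 or more, against 12.8% of all genes, and 0 were lower, against 13.3%. Without the libraries of low housekeeping score 3 were higher, against 24.1% of all genes. The members' median was 0.46 beside 0.20 for all genes.

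The mean log2(TPM + 1) over the 10 genes was 2.80 ± 0.81 in KO MK (SD, 5 cells), 2.44 ± 0.30 in WT MK (6 cells), 1.73 ± 1.09 in KO NMK (13 cells) and 1.35 ± 0.38 in WT NMK cells (9 cells). The differences were 1.08 (SD 0.35) for WT MK against WT NMK, 1.07 (SD 1.03) for KO MK against KO NMK, 0.36 (SD 0.58) for KO MK against WT MK and 0.37 (SD 0.88) for KO NMK against WT NMK. WT MK exceeded WT NMK by more than the spread between cells, beside a median of 0.70 over all genes. Over the 8 members other than Ccl2 and Il1b the difference was 0.02 (SD 0.57). The genotypes differed by less than that spread in both cell kinds, and without KO MK cells 2 and B1-4 the MK difference was -0.11. The difference between KO MK and KO NMK cells was 0.60 without that pair and 0.79 without the libraries of low housekeeping score.

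Upstream of the members, 2 receptor genes and 1 subunit gene were higher in KO than in WT in both cell kinds. They are among the genes picked for the size of their differences, so their direction is a description and no support. Tnfrsf1a, the main TNF receptor, was at 8.7 to 80.7 TPM in KO MK against 1.5 to 11.6 TPM in WT MK cells (difference 2.00, SD 1.0), and at 0 to 211.6 TPM in KO NMK against 0 to 49.7 TPM in WT NMK cells (2.71, SD 2.07). Ltbr, the lymphotoxin-beta receptor, was at 11.3 to 53.1 TPM in KO MK against 5.1 to 12.1 TPM in WT MK cells (1.32, SD 0.67), and at 0.2 to 117.9 TPM in KO NMK against 0 to 14.3 TPM in WT NMK cells (2.57, SD 1.81). Rela, the activating p65 subunit, was at 11.3 to 72.6 TPM in KO MK against 3.5 to 21.6 TPM in WT MK cells (1.53, SD 0.99), and at 0 to 92.3 TPM in KO NMK against 0 to 12 TPM in WT NMK cells (2.20, SD 1.71). Each difference exceeded the pooled SD, and each pair of ranges overlapped. Tlr4, of the same receptor list, differed by 0.77 (SD 1.38) in KO MK against WT MK and by -1.67 (SD 1.9) in KO NMK against WT NMK cells. The 117.9 TPM of Ltbr belongs to KO NMK B1-2a, and without both libraries of low housekeeping score the NMK differences were 3.47 for Tnfrsf1a, 2.55 for Ltbr and 2.55 for Rela. Without KO MK cells 2 and B1-4 the MK differences were 1.31 for Tnfrsf1a, 1.14 for Ltbr and 1.39 for Rela.

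By list, in KO MK against WT MK cells, where 12.4% of all genes were higher by 1 or more and 9.27% lower, 3 of 7 tested genes among the other NF-kB subunits and IkB proteins were higher by 1 or more and 0 lower, as were 2 of 6 receptor genes. Of 22 tested IKK and adaptor genes 1 was higher and 0 lower, and of 8 negative regulators 0 passed in either direction. Bcl3, an atypical IkB protein, was at 2.1 to 37.0 TPM in KO MK and 0 to 2.7 TPM in WT MK cells (difference 2.09, SD 1.12). Of 7 other chemokine and cytokine genes 5 were higher, but Ccl9, at 54.6 and 244.4 TPM, and Il18, at 20.4 and 31.1 TPM, were read in KO MK cells 2 and B1-4 and listed at 0 in the other KO MK cells, and without that pair 2 of 5 were higher and 1 lower. Of the other TNFAIP8 family genes 1 of 2 tested, Tnfaip8, was higher (1.11, SD 0.60). Without KO MK cells 2 and B1-4 Tnfaip8 differed by 0.56 (SD 0.35), and 0 of 2 were higher by 1 or more, where 16.1% of all genes were. In KO NMK against WT NMK cells, where 12.8% of all genes were higher and 13.3% lower, 3 of 5 receptor genes were higher and 1 lower, 0 of 6 chemokine and cytokine genes were higher and 1 lower, and 1 of 11 other target genes was higher and 4 lower. Of 2 TNFAIP8 family genes 0 were higher and 1 lower.

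The same lists were counted for MK against NMK cells. In KO MK against KO NMK cells, where 34.2% of all genes were higher by 1 or more, 11 of 22 IKK and adaptor genes, 5 of 8 negative regulators and 5 of 8 chemokine and cytokine genes were higher and 0 lower. Without KO MK cells 2 and B1-4, 4 of 8 chemokine and cytokine genes were higher and 1 lower, and without the libraries of low housekeeping score 3 of 8 negative regulators were higher. In WT MK against WT NMK cells, where 37.4% of all genes were higher, 8 of 18 IKK and adaptor genes were higher and 0 lower, while 1 of 7 chemokine and cytokine genes was higher and 3 lower. Myd88, the adaptor of Toll-like and interleukin-1 receptors, was at 65.3 to 298.8 TPM in KO MK against 0 to 231.1 TPM in KO NMK cells (3.16, SD 3.0), and at 103.1 to 129.9 TPM in WT MK against 0 to 117.0 TPM in WT NMK cells (2.97, SD 1.9). Cxcl3, a neutrophil chemokine related to Cxcl2, showed the MK pattern that Cxcl2 did not: it was at 21.8, 27.6, 0, 22.6 and 0.1 TPM in KO MK cells 1A, 1B, 2, B1-3 and B1-4 and at 0.4 to 7.8 TPM in WT MK cells, against at most 1.2 TPM in KO NMK and 0 in all WT NMK cells.

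The genes most like each member in log2(TPM + 1) over the 33 cells were sought among 10673 genes, for the 7 members read in at least 8 cells. For Il1b they were Rasl11a (r = 0.98), Trim58 (0.97) and Vegfa (0.96), and for Nfkb1 Caprin1 (0.85), Pgam1 (0.80) and Mrpl16 (0.80). Nfkbia was nearest to Uap1l1 (0.78), Rnf10 (0.77) and Osgep (0.76), and Ccl2 to Usp40 (0.78), Adgra3 (0.75) and Pim2 (0.75). The nearest genes to Ccl4 were Calcrl (0.76), Plekhm3 (0.67) and H2-DMb2 (0.66), to Tnf Mterf2 (0.76), Jrkl (0.69) and Pigt (0.68), and to Tnfaip8l2 Tatdn1 (0.68), Clec4e (0.67) and Ciz1 (0.66). Between the members themselves the closest pairs were Ccl2 with Il1b (0.57) and Nfkbia with Nfkb1 (0.52). These values are descriptions, since cells of a group, shared zeros and the common total enter all of them.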

How the data were processed

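Single-cell SMART-Seq libraries of cultured CD41-positive mouse stem cells were deposited by the authors as TPM per gene, once for 46 libraries and once for the 33 left after they took outliers away. The submitters' processing notes list STAR 2.6.1e and name the mouse build mm10, with featureCounts 1.6.2 beside cutadapt 1.9.1 and FastQC 0.11.7. Not given in the sources used here are the annotation, the strand setting, how counts became TPM and how outliers were chosen. The TPM total is the same in every library, so abundant transcripts lower the rest and depth cannot be judged.

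Groups came from titles and genotype labels. Of 90 samples 44 were not analysed here, and 1 column was not used because it matched no sample. Results come from the 33 libraries unless stated. Groups were compared by the difference in mean log2(TPM + 1), pseudocount 1, beside the pooled SD between cells, among genes averaging at least 1 TPM in either group. This scale understates the change of low genes. A difference of 1 or more counted as higher or lower. Intervals for shares are exact Clopper-Pearson at 95%. Members and the 8 pathway and 7 marker lists were chosen with earlier results of these data known, and 1 of the lists is not reported here. Named pathway genes were, per list, at most 4 with the largest difference in any comparison that averaged at least 10 TPM in one of its groups, and the few described are a subset chosen after their values were seen; Il1bos, Lyz2 and Runx1 were added for the checks above. Gene positions came from GENCODE M21 (GRCm38) and promoters from RefSeq. The computation was tested on simulated data. The tools were scipy 1.17.1, pandas 2.3.3, matplotlib 3.10.9 and numpy 2.4.6 in Python 3.11.15.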

Additional observations from a re-analysis of the deposited data

Results flagged for a closer look

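In 4 of the 20 combinations of member and group examined, 1 cell stood far from the others of its group, where chance flags about 1 in 20 groups. The 20 cover KO MK, WT MK and WT NMK, and the 13 KO NMK cells were not examined in this way. Among these, Cxcl2 at 54.4 TPM in 1A and Ccl3 at 63.4 TPM in B1-2b were each the only value above 0. Whether that rate holds for groups mostly at 0, as these are, was not tested. Ccl3 was at 65.2 TPM in KO MK B1-4 and listed at 0 in the other 4 KO MK cells. Ccl2 was at 196 TPM in WT NMK 4A and listed at 0 in the other 8 WT NMK cells. Tnf was at 36.2 TPM in WT NMK 1, where the next WT NMK cell had 2.1 TPM. Tnfaip8l2 was at 27.8 TPM in WT NMK 4B, where the next WT NMK cell had 2.9 TPM.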

How the results depend on the processing

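The mean level over the 10 genes in WT MK against WT NMK cells, 1.08 as reported, was 0.17 in the full table of 46 libraries, 2.42 with a pseudocount of 0.1, 0.31 with a pseudocount of 10, 0.077 as the ratio of mean TPM and 1.69 over members averaging at least 10 TPM. For KO MK against WT MK, 0.36 as reported, it was 1.26 as the ratio of mean TPM and -0.11 without both KO MK cells of low Pf4. With each cell left out in turn the 4 differences ran from 0.97 to 1.16 for WT MK against WT NMK, 0.79 to 1.34 for KO MK against KO NMK, 0.08 to 0.63 for KO MK against WT MK, lowest without KO MK B1-4, and 0.18 to 0.52 for KO NMK against WT NMK. Ccl4 turned round as a median over cells, to 0.069 in WT MK against WT NMK and -0.069 in KO MK against WT MK. Without both KO MK cells of low Pf4, a setting chosen after seeing the data, it was -1.21 in KO MK against KO NMK and -0.26 in KO MK against WT MK. Tnfaip8l2 in KO MK against WT MK ran from 1.98 with a pseudocount of 10 to 4.95 with 0.1, and was 3.19 in the full table. Median-ratio rescaling moved the median of all genes in KO MK against WT MK to 0.24, against 0.09, with Tnfaip8l2 at 4.04 and Nfkbia at 1.49. The cause of these shifts was not tested. No paired analysis was possible because the replicate numbers name cells and no test was run. Comparisons within prefix B1 gave no value for WT NMK, where no such cell was kept. Single cells with 0 values, an unknown depth and 5 to 13 cells a group limit every value.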
